A study of Mus musculus with 25 samples.

Results

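The genes described here mark the part of the kidney tubule beyond the proximal segment: the thick ascending limb of the loop of Henle, the distal convoluted and connecting tubule, and the principal and intercalated cells of the collecting duct. They were 36 genes listed by name, with no threshold on their values, at a time when earlier results of these data were known. Of these, 33 had a probe set carrying their symbol alone, and where a gene had several, the one brightest on average across the 25 arrays stands for it. Trpv5 and Atp6v1g3, of the connecting tubule and the intercalated cell, and Slc4a9, an intercalated cell exchanger, had no such probe set and were not analysed here. Of the 33, 32 passed a filter on dim genes and were tested among 11968 genes; the principal cell factor Elf5 did not pass it. The 32 comprised 6 genes of the thick ascending limb, 10 of the distal convoluted and connecting tubule, 11 of the principal cell and 5 of the intercalated cell.

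The series measured polysomal RNA labelled as coming from kidney podocytes, the epithelial cells around the glomerular capillaries, in mice with a point mutation of Actn4, the gene of the actin crosslinker alpha-actinin-4. All mice, wild type included, were of strain C57/129sv and carried the transgene Col1a1-eGFPL10a, in which the collagen1α1 promoter drives a ribosomal protein joined to a green fluorescent protein. Tagged ribosomes were pulled down from the kidney (translating ribosome affinity purification, TRAP), and their RNA was amplified and hybridized to Affymetrix mouse arrays. The groups were wild type (WT) mice of 2, 5 and 44 weeks with 4, 5 and 4 arrays, and mice with the knock-in allele Actn4tm1.1Plk (KI) of the same ages with 4 arrays each. The sources used here do not give whether KI mice carried 1 or 2 such alleles, and sex was labelled unknown. Nothing in the labels ties arrays to separate animals, so p-values measure only the spread among these samples, which may be technical. Actn4 had no named probe set and could not serve to check the genotype labels. No array of unpurified kidney RNA is among the 25.

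The distal nephron adjusts the last part of the filtered salt and water. The thick ascending limb takes up sodium, potassium and chloride together without water, the distal convoluted tubule takes up sodium chloride and magnesium, and the connecting tubule takes up calcium. Principal cells take up sodium through the epithelial sodium channel and water through aquaporins under aldosterone and vasopressin, and intercalated cells secrete acid or base with a proton pump. None of these segments lies in the glomerulus, so these genes are not podocyte genes in textbook terms. In RNA pulled down from many cells together, fewer cells of a type and less RNA per cell cannot be told apart. With no array of unpurified kidney RNA, the part of the signal from cells without tagged ribosomes was not tested.

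Among the members are 3 transcription factors of these cells whose short recognition motifs are well known: Foxi1, a forkhead factor required for intercalated cells, Tfap2b, an AP-2 factor of the distal tubule, and Gata3. The promoters of 3 members whose values are central below are shown for the matches to these motifs. They are the 250 bases before the annotated start from RefSeq (GRCm38.p6), written 5′ to 3′ on the gene's strand, with the matches in capitals. Atp6v1b1, with the largest 5-week difference, has a forkhead match (TGTTTAC); Fxyd4, with the smallest 5-week p, has an AP-2 match (GCCNNNGGC); Slc12a3, the transporter that defines the distal convoluted tubule, has a GATA match (AGATAA) and an AP-2 match.
Atp6v1b1, chr6:83742767-83743016, plus strand: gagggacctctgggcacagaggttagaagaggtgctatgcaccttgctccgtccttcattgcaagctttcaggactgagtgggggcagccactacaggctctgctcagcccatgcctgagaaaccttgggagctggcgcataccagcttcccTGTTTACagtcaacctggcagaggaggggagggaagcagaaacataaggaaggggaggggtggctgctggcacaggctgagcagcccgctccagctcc
Fxyd4, chr6:117937336-117937585, minus strand: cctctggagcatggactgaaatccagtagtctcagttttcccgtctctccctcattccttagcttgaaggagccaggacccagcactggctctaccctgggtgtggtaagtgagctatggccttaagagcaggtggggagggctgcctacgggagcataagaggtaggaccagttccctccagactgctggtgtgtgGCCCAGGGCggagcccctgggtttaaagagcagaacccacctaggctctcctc
Slc12a3, chr8:94328958-94329207, plus strand: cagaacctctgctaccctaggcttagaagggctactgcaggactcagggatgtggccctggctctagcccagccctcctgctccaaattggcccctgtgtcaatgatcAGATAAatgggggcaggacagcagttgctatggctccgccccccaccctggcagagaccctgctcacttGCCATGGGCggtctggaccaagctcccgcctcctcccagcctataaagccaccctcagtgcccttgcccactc
Counted from the start, the Atp6v1b1 match begins at -98, that of Fxyd4 at -53, and those of Slc12a3 at -142 and -73.

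A promoter was found for 26 of the 36 genes, and 7 motifs were searched on both strands in the promoters of that length of 27025 genes. The forkhead motif was present for Atp6v1b1, Slc12a1, Egf and Avpr2 and for 3.54% of all genes with a promoter. The AP-2 motif was present for 8 members, Foxi1, Fxyd4, Gata3, Kcnj10, Pvalb, Slc12a3, Trpm6 and Wnk1, and for 15.4% of all such genes. The GATA motif was present for Aqp2, Slc12a3 and Trpv5 and for 11.4%. GTTAAT, a partial site of the HNF1 factors, was present for Umod, Tfap2b and Atp6v1g3 and for 7.49%. The full palindromic HNF1 site, which contains that partial site, was present for 0 members, as were the estrogen-related receptor motif TCAAGGTCA and the grainyhead motif AACCGGTT. No match of a member overlapped a match to another of the motifs. A match describes letters in this window and shows no binding.

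Podocyte markers were high in every array: the mean of 12 podocyte genes lay between 10.45 and 11.24 on the log2 scale, and Wt1 between 11.94 and 12.54. Markers of other cells were present too. The mean of 17 proximal tubule markers was 9.33 ± 0.34 in WT arrays of 2 weeks (log2, SD, n = 4), 9.27 ± 0.43 in those of 5 weeks (n = 5) and 9.67 ± 0.69 in those of 44 weeks (n = 4). In KI it was 9.92 ± 0.32, 9.99 ± 0.22 and 10.25 ± 0.35 at the same ages (n = 4 each). Among the controls of RNA quality, the 3′ minus 5′ signal of actin was 1.52 ± 0.06 in WT (n = 5) and 1.17 ± 0.15 in KI (n = 4) at 5 weeks, while that of Gapdh was 1.22 ± 0.39 and 1.48 ± 0.19. The 18S ribosomal RNA probe set read 8.74 ± 0.73 in WT and 10.29 ± 0.44 in KI at that age. The mean of 3 Y-linked genes was, by rising age, 7.49 ± 0.17, 5.34 ± 2.39 and 4.36 ± 2.62 in WT and 4.38 ± 2.05, 6.75 ± 2.11 and 6.85 ± 2.56 in KI. Single arrays read either low or high. By rising array number the 2-week means were 7.48, 7.26, 7.67 and 7.57 in WT and 3.41, 7.44, 3.52 and 3.14 in KI. At 5 weeks they were 7.96, 3.69, 7.95, 3.65 and 3.45 in WT and 7.92, 7.82, 3.58 and 7.68 in KI. At 44 weeks they were 8.28, 3.30, 2.97 and 2.89 in WT and 7.93, 8.39, 8.06 and 3.02 in KI. All WT arrays of 2 weeks thus read high, and of the KI arrays of that age only array 20 did. The part of the RNA quality and of the Y-linked genes in the 5-week calls was not tested, beyond a fit with the Y-linked mean in which 10 members were called in place of 13.

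Single arrays stood apart in the distal nephron genes. WT 5-week array 7 was the lowest of its group for 21 of the 32 tested members, against 22.8% of all tested genes. WT 44-week array 16 was the lowest of its group for 26 of 32, against 21.2% of all genes, and KI 2-week array 22 was the highest of its group for 27 of 32, against 24.3%. The heat map of all arrays shows these as a blue, a pale and a red column. Counts and medians that these arrays moved by over 1.5 times are given with and without them. WT 5-week array 10 was the highest of its group for 16 of 32, against 30.6% of all genes. Its Gapdh 3′ minus 5′ signal was 1.91, with the next array of its group at 1.15. Its 18S signal was 9.97, with the next at 8.71, inside the KI 5-week range of 9.64 to 10.52. Its actin 3′ minus 5′ signal, 1.47, was the lowest of the group. The part of these controls in its values was not tested.

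**Figure D1:**
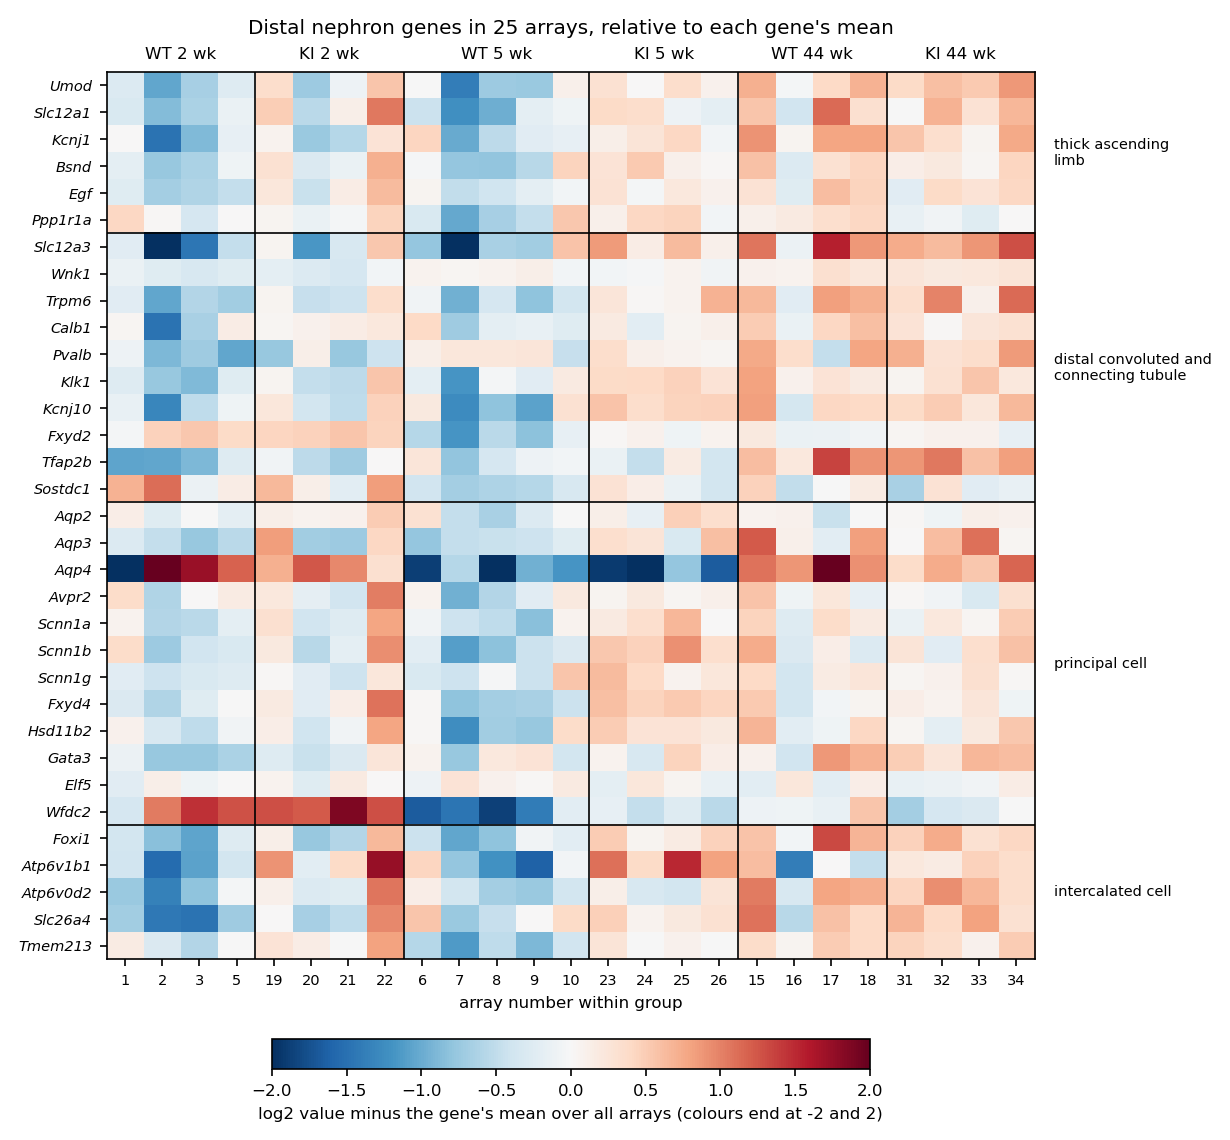
Heat map of the 33 genes with a probe set (rows, by segment) in the 25 arrays (columns, by group, with the array number), as the log2 value minus the gene's mean over all arrays. WT 5-week array 7 is blue in most rows, KI 2-week array 22 is red in most rows, and Aqp4 and Wfdc2 are blue in most 5-week arrays of both genotypes.

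Over the 33 genes, the lowest of the 6 group means was WT at 2 weeks for 19, WT at 5 weeks for 13 and KI at 5 weeks for 1, Aqp4. The highest was KI at 44 weeks for 10, WT at 44 weeks for 9, KI at 5 weeks for 8 and KI at 2 weeks for 4. WT at 2 weeks and WT at 5 weeks were the highest for 1 each. For 32 of the 33 the lowest mean was therefore in WT mice of 2 or 5 weeks. Elf5, dim and with group means of only 3.68 to 3.82, is among these. The same count was not made over all genes tested, so whether it is particular to the members was not tested.

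At 5 weeks, 13 of the 32 tested members were higher in KI and 0 were lower, in all 4 segments. The genes that rose encode sodium channel subunits (Scnn1a, Scnn1b), FXYD regulators of the sodium pump (Fxyd2, Fxyd4), a potassium channel (Kcnj10), a magnesium channel (Trpm6), a proton pump subunit (Atp6v1b1) and the intercalated cell factor Foxi1. The others were Klk1, Hsd11b2, Wfdc2, Ppp1r1a and Tmem213. A call is an adjusted p under 0.05 in limma, with Benjamini-Hochberg adjustment over all 11968 genes, and differences are KI minus WT on the log2 scale with limma's standard error. Of all genes tested, 22% were called at 5 weeks, 14.3% higher and 7.75% lower in KI, which is 1710 of 2638 calls higher; with each array centred on its median this was 1376 of 2759. The median difference over the 32 members was 0.63, against 0.06 over all genes, and 30 of the 32 were positive, against 55.6% of all genes. For 8 members every KI array lay above every WT array, against 7.09% of all genes, and for 0 members it lay below, against 4.88%. In the plot of differences by age the 5-week differences lie to the right of 0 for all members except Wnk1 and Aqp4.

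**Figure D2:**
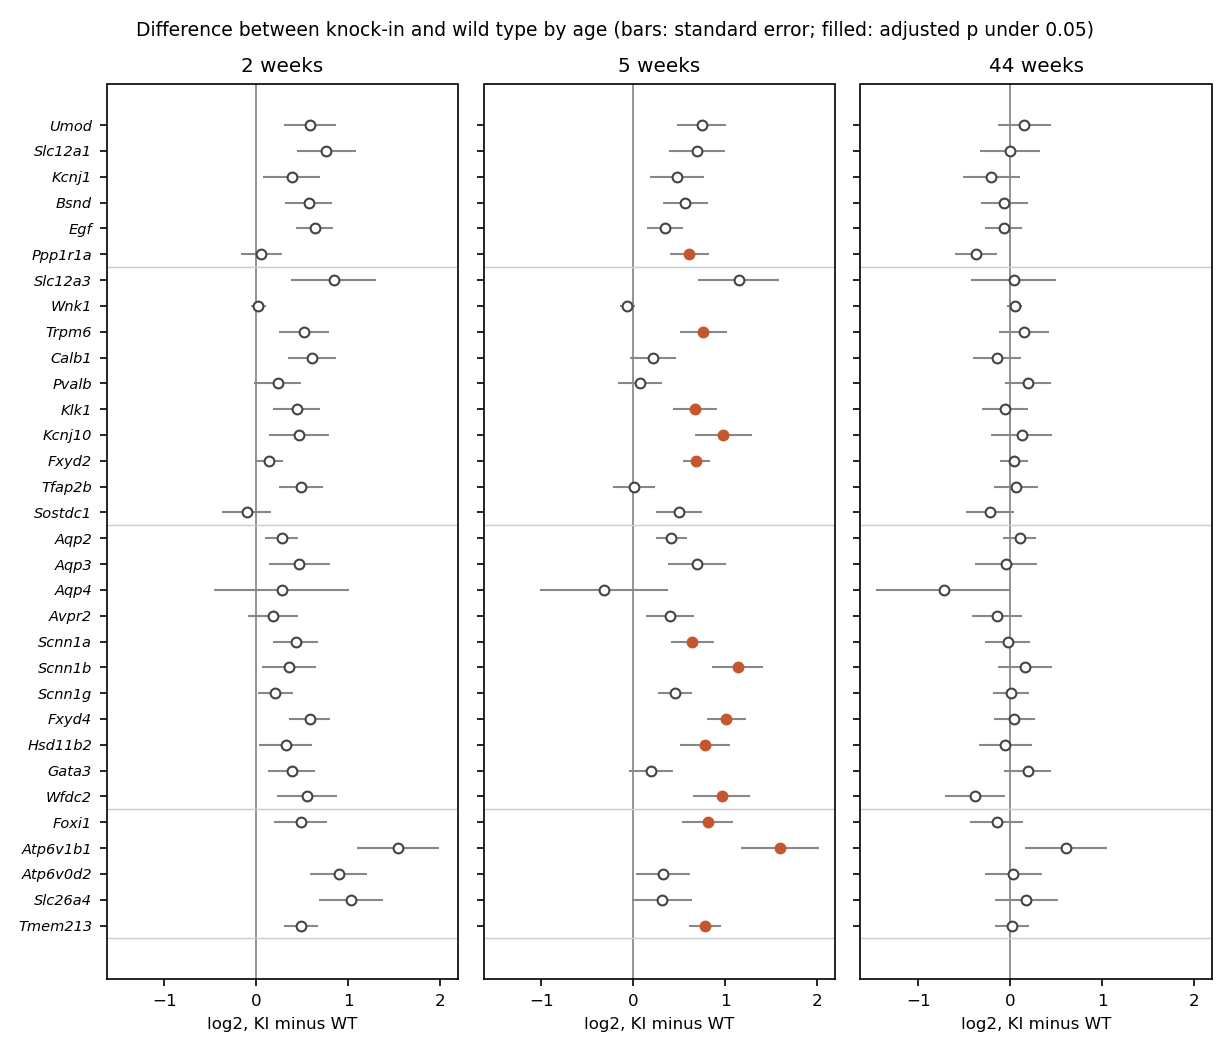
Difference between KI and WT (log2, x axis) for the 32 tested genes (y axis, by segment) at 2, 5 and 44 weeks; bars are standard errors and filled points have an adjusted p under 0.05. There are 13 filled points at 5 weeks and 0 at 2 and at 44 weeks; 31 of 32 points lie to the right of 0 at 2 weeks and 17 of 32 at 44 weeks.

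The calls at 5 weeks depended on the arrays used. The count of 13 became 5 without WT array 7, 6 without WT 8, 6 without WT 9 and 18 without WT 10. It became 5 without KI array 23, 7 without KI 24, 6 without KI 25 and 6 without KI 26. Fxyd2, Scnn1b, Fxyd4, Atp6v1b1 and Tmem213 passed in each fit that left out a single 5-week array. With WT arrays 7, 8 and 9 left out together, 0 passed by limma and the median difference was 0.22; of all genes 0.00836% passed in that fit. With the mean of the proximal tubule markers of each array as a covariate, 1 passed (Fxyd4, 0.58, adjusted p = 0.0453) and the median was 0.31, while 6.17% of all genes passed. In the sections that follow, values within a group are in the order of the array numbers in the titles, which are 1, 2, 3 and 5 (WT, 2 weeks), 6 to 10 (WT, 5 weeks), 15 to 18 (WT, 44 weeks), 19 to 22 (KI, 2 weeks), 23 to 26 (KI, 5 weeks) and 31 to 34 (KI, 44 weeks).

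In the thick ascending limb, 1 of 6 genes rose in KI at 5 weeks and none fell, near the 14.3% of all genes called higher. Umod at 5 weeks read 11.15, 9.77, 10.43, 10.41 and 11.26 in WT and 11.46, 11.17, 11.51 and 11.24 in KI arrays; it encodes uromodulin, the most abundant protein of normal urine. All KI arrays lay above WT arrays 6 to 9 and 2 of the 4 also above WT array 10, and the difference was 0.74 ± 0.27 (adjusted p = 0.0525), short of the threshold. Umod at 2 weeks read 10.88, 10.11, 10.49 and 10.89 in WT and 11.51, 10.44, 11.05 and 11.71 in KI, and at 44 weeks 11.86, 11.12, 11.55 and 11.85 in WT and 11.54, 11.76, 11.69 and 12.02 in KI. Slc12a1 at 5 weeks read 9.31, 8.51, 8.77, 9.55 and 9.66 in WT and 10.13, 10.10, 9.64 and 9.55 in KI arrays; it encodes the furosemide-sensitive sodium-potassium-chloride cotransporter. The 2 lowest KI values fell among the WT values and the difference of 0.69 ± 0.31 did not pass (adjusted p = 0.104). Slc12a1 at 2 weeks read 9.43, 8.87, 9.11 and 9.61 in WT and 10.23, 9.20, 9.85 and 10.79 in KI, and at 44 weeks 10.30, 9.36, 10.88 and 10.06 in WT and 9.73, 10.43, 10.04 and 10.40 in KI. At 2 weeks KI array 22 was the highest of these and at 44 weeks WT array 16 the lowest, and the groups overlapped at both ages.

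Egf at 5 weeks read 10.82, 10.26, 10.36, 10.56 and 10.71 in WT and 11.04, 10.72, 10.96 and 10.84 in KI arrays; it encodes the precursor of epidermal growth factor, made in the thick limb and distal tubule. The highest WT value, of array 6, lay above the lowest KI value and the difference was 0.35 ± 0.19 (adjusted p = 0.191). Egf at 2 weeks read 10.52, 10.08, 10.16 and 10.28 in WT and 10.98, 10.31, 10.90 and 11.39 in KI, and at 44 weeks 11.04, 10.52, 11.38 and 11.20 in WT and 10.53, 11.14, 11.04 and 11.16 in KI. Ppp1r1a, an inhibitor of protein phosphatase 1, was the gene of this segment that rose, by 0.61 ± 0.21 (adjusted p = 0.0454), although WT array 10 at 9.56 was above every KI array. Kcnj1, the potassium channel that returns potassium to the lumen, and Bsnd, the barttin subunit of chloride channels, differed by 0.48 ± 0.29 and 0.57 ± 0.24 and did not pass.

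In the distal convoluted and connecting tubule, 4 of 10 genes rose at 5 weeks and none fell, against 14.3% of all genes called higher. Slc12a3 at 5 weeks read 7.89, 6.65, 8.02, 7.97 and 9.24 in WT and 9.52, 8.82, 9.30 and 8.77 in KI arrays; it encodes the thiazide-sensitive sodium chloride cotransporter. WT array 7 was the lowest and WT array 10 overlapped the KI range, and the difference of 1.15 ± 0.44 had a large error and did not pass (adjusted p = 0.0636). Slc12a3 at 2 weeks read 8.44, 6.58, 7.22 and 8.18 in WT and 8.72, 7.50, 8.34 and 9.21 in KI, and at 44 weeks 9.74, 8.55, 10.23 and 9.54 in WT and 9.41, 9.30, 9.54 and 9.95 in KI. These values spread over more than 3 log2 units across the series, from 6.58 in WT 2-week array 2 to 10.23 in WT 44-week array 17.

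Trpm6 at 5 weeks read 6.04, 5.15, 5.78, 5.30 and 5.75 in WT and 6.35, 6.13, 6.18 and 6.81 in KI arrays; it encodes the magnesium channel of the distal convoluted tubule. The groups did not overlap and Trpm6 rose by 0.76 ± 0.26 (adjusted p = 0.0381). Trpm6 at 2 weeks read 5.89, 5.07, 5.53 and 5.42 in WT and 6.17, 5.65, 5.70 and 6.46 in KI, and at 44 weeks 6.76, 5.88, 6.92 and 6.83 in WT and 6.44, 7.11, 6.22 and 7.24 in KI. At those 2 ages KI and WT overlapped. Kcnj10 at 5 weeks read 6.70, 5.26, 5.71, 5.44 and 6.82 in WT and 7.08, 6.86, 6.95 and 6.98 in KI arrays; it encodes the basolateral potassium channel Kir4.1. The 4 KI arrays lay close together and above all WT arrays, of which 6 and 10 were highest, and Kcnj10 rose by 0.98 ± 0.31 (adjusted p = 0.0296). Kcnj10 at 2 weeks read 6.37, 5.20, 6.01 and 6.43 in WT and 6.74, 6.14, 6.00 and 6.97 in KI, and at 44 weeks 7.34, 6.15, 6.92 and 6.90 in WT and 6.89, 7.02, 6.73 and 7.16 in KI.

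Klk1 at 5 weeks read 11.24, 10.25, 11.40, 11.21 and 11.61 in WT and 11.81, 11.83, 11.89 and 11.70 in KI arrays; it encodes tissue kallikrein, secreted by connecting tubule cells. No WT array reached the lowest KI value, and Klk1 rose by 0.67 ± 0.24 (adjusted p = 0.0489). Klk1 at 2 weeks read 11.17, 10.68, 10.55 and 11.19 in WT and 11.49, 10.96, 10.90 and 11.99 in KI, and at 44 weeks 12.23, 11.52, 11.71 and 11.62 in WT and 11.49, 11.74, 11.98 and 11.64 in KI. Mouse kallikreins form a family of near-identical genes, so this signal may include other family members. Fxyd2 at 5 weeks read 11.28, 10.67, 11.32, 11.03 and 11.69 in WT and 11.88, 11.94, 11.77 and 11.93 in KI arrays; it encodes the gamma subunit that tunes the sodium pump, in proximal as well as distal tubule cells. Fxyd2 rose by 0.68 ± 0.15 (adjusted p = 0.00443) with no overlap and with little spread among KI arrays. Fxyd2 at 2 weeks read 11.82, 12.31, 12.39 and 12.24 in WT and 12.29, 12.32, 12.40 and 12.30 in KI, and at 44 weeks 12.05, 11.72, 11.74 and 11.79 in WT and 11.90, 11.94, 11.94 and 11.70 in KI. In this gene WT at 5 weeks was the group that stood low, with a mean of 11.20 ± 0.38 (SD, n = 5), while the other 5 groups had means from 11.83 to 12.33.

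Calb1 at 5 weeks read 11.30, 10.20, 10.70, 10.75 and 10.66 in WT and 11.09, 10.69, 10.96 and 11.01 in KI arrays; it encodes calbindin, a calcium buffer of the distal tubule. The groups overlapped, with WT array 6 the highest of the 9, and the difference was 0.21 ± 0.25 (adjusted p = 0.539). Calb1 at 2 weeks read 10.94, 9.42, 10.25 and 11.05 in WT and 10.95, 10.99, 11.04 and 11.11 in KI, and at 44 weeks 11.41, 10.77, 11.32 and 11.51 in WT and 11.17, 10.92, 11.15 and 11.21 in KI. At 2 weeks WT arrays 1, 2 and 3 read below all KI arrays, array 1 only just, while WT array 5 lay inside the KI range. Sostdc1, an antagonist of bone morphogenetic proteins, differed by 0.49 ± 0.25, and Pvalb, a calcium buffer of the early distal convoluted tubule, by 0.07 ± 0.24. Tfap2b differed by 0.01 ± 0.23 and Wnk1, a kinase that controls sodium chloride cotransport and is made in most tissues, by -0.06 ± 0.08. None of these 4 passed.

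Among principal cell genes, 5 of 11 rose at 5 weeks and none fell, against 14.3% of all genes called higher. Scnn1b at 5 weeks read 5.80, 4.90, 5.18, 5.57 and 5.72 in WT and 6.55, 6.46, 6.92 and 6.34 in KI arrays; it encodes the beta subunit of the epithelial sodium channel. Every KI array lay above every WT array and Scnn1b rose by 1.13 ± 0.28 (adjusted p = 0.00865), 2.19-fold. Scnn1b at 2 weeks read 6.37, 5.28, 5.62 and 5.70 in WT and 6.19, 5.45, 5.81 and 6.93 in KI, and at 44 weeks 6.75, 5.71, 6.14 and 5.73 in WT and 6.26, 5.78, 6.35 and 6.58 in KI. The alpha subunit Scnn1a rose by 0.64 ± 0.23 (adjusted p = 0.0497), with WT array 10 at 6.30 above the lowest KI array at 6.24. The gamma subunit Scnn1g differed by 0.45 ± 0.18 and did not pass (adjusted p = 0.0779).

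Fxyd4 at 5 weeks read 7.78, 6.95, 7.07, 7.11 and 7.34 in WT and 8.36, 8.21, 8.29 and 8.19 in KI arrays; it encodes a regulator of the sodium pump found in the collecting duct (also called CHIF). No KI array fell below 8.19 and no WT array exceeded 7.78, and Fxyd4 rose by 1.01 ± 0.21 (adjusted p = 0.00402), the smallest p of the members. Fxyd4 at 2 weeks read 7.47, 7.16, 7.51 and 7.75 in WT and 7.94, 7.54, 7.89 and 8.85 in KI, and at 44 weeks 8.29, 7.40, 7.70 and 7.82 in WT and 7.89, 7.83, 8.01 and 7.67 in KI. Hsd11b2, the enzyme that inactivates glucocorticoid in aldosterone target cells, rose by 0.78 ± 0.27 (adjusted p = 0.0459), and Wfdc2, a secreted protease inhibitor domain protein (HE4), by 0.96 ± 0.31 (adjusted p = 0.0327). In both, WT array 10 lay inside the KI range, at 8.97 and 9.13.

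Aqp2 at 5 weeks read 6.58, 5.80, 5.63, 6.01 and 6.28 in WT and 6.39, 6.11, 6.75 and 6.62 in KI arrays; it encodes the water channel that vasopressin inserts into the apical membrane. WT arrays 6 and 10 lay inside the KI range and the difference was 0.41 ± 0.17 (adjusted p = 0.0815), short of the threshold. Aqp2 at 2 weeks read 6.41, 6.04, 6.27 and 6.08 in WT and 6.40, 6.35, 6.36 and 6.79 in KI, and at 44 weeks 6.35, 6.37, 5.84 and 6.28 in WT and 6.31, 6.20, 6.40 and 6.37 in KI. The basolateral water channels did not pass: Aqp3 differed by 0.69 ± 0.31 and Aqp4 by -0.32 ± 0.69. The vasopressin receptor Avpr2 differed by 0.40 ± 0.26 and Gata3 by 0.20 ± 0.24, neither passing. Elf5, below the limit for testing, had group means between 3.68 and 3.82.

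Among intercalated cell genes, 3 of 5 rose at 5 weeks and none fell, against 14.3% of all genes called higher. Foxi1 at 5 weeks read 5.36, 4.75, 4.98, 5.72 and 5.57 in WT and 6.30, 5.84, 5.95 and 6.24 in KI arrays. The highest WT and the lowest KI array differed by little, 5.72 against 5.84, and Foxi1 rose by 0.81 ± 0.28 (adjusted p = 0.0404). Foxi1 at 2 weeks read 5.42, 4.95, 4.73 and 5.53 in WT and 5.90, 5.02, 5.20 and 6.44 in KI, and at 44 weeks 6.36, 5.72, 7.10 and 6.47 in WT and 6.25, 6.53, 6.10 and 6.21 in KI. Atp6v1b1 at 5 weeks read 7.85, 6.66, 6.21, 5.81 and 7.38 in WT and 8.52, 7.81, 8.94 and 8.24 in KI arrays; it encodes the B1 subunit of the proton pump of intercalated cells. WT array 6 lay just above the lowest KI array, the WT arrays spread widely, from 5.81 to 7.85, and Atp6v1b1 rose by 1.60 ± 0.42 (adjusted p = 0.0128), 3.02-fold. Atp6v1b1 at 2 weeks read 7.05, 5.88, 6.36 and 7.06 in WT and 8.32, 7.22, 7.80 and 9.16 in KI, and at 44 weeks 8.04, 6.05, 7.43 and 6.95 in WT and 7.64, 7.59, 7.89 and 7.78 in KI. At 2 weeks no WT array reached the lowest KI array of this gene.

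Tmem213 at 5 weeks read 7.34, 6.77, 7.40, 7.00 and 7.52 in WT and 8.16, 7.89, 7.99 and 7.89 in KI arrays; it encodes a transmembrane protein. The groups did not overlap and Tmem213 rose by 0.78 ± 0.17 (adjusted p = 0.00575). Tmem213 at 2 weeks read 8.06, 7.61, 7.31 and 7.89 in WT and 8.17, 8.04, 7.89 and 8.70 in KI, and at 44 weeks 8.26, 7.96, 8.41 and 8.30 in WT and 8.35, 8.25, 7.99 and 8.42 in KI. Atp6v0d2, a membrane sector subunit of the proton pump, differed by 0.32 ± 0.30 and Slc26a4, the chloride-bicarbonate exchanger pendrin of base-secreting cells, by 0.31 ± 0.33; neither passed. With the proximal tubule covariate both turned negative, at -0.20 and -0.25, as did Tfap2b at -0.18.

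**Figure D3:**
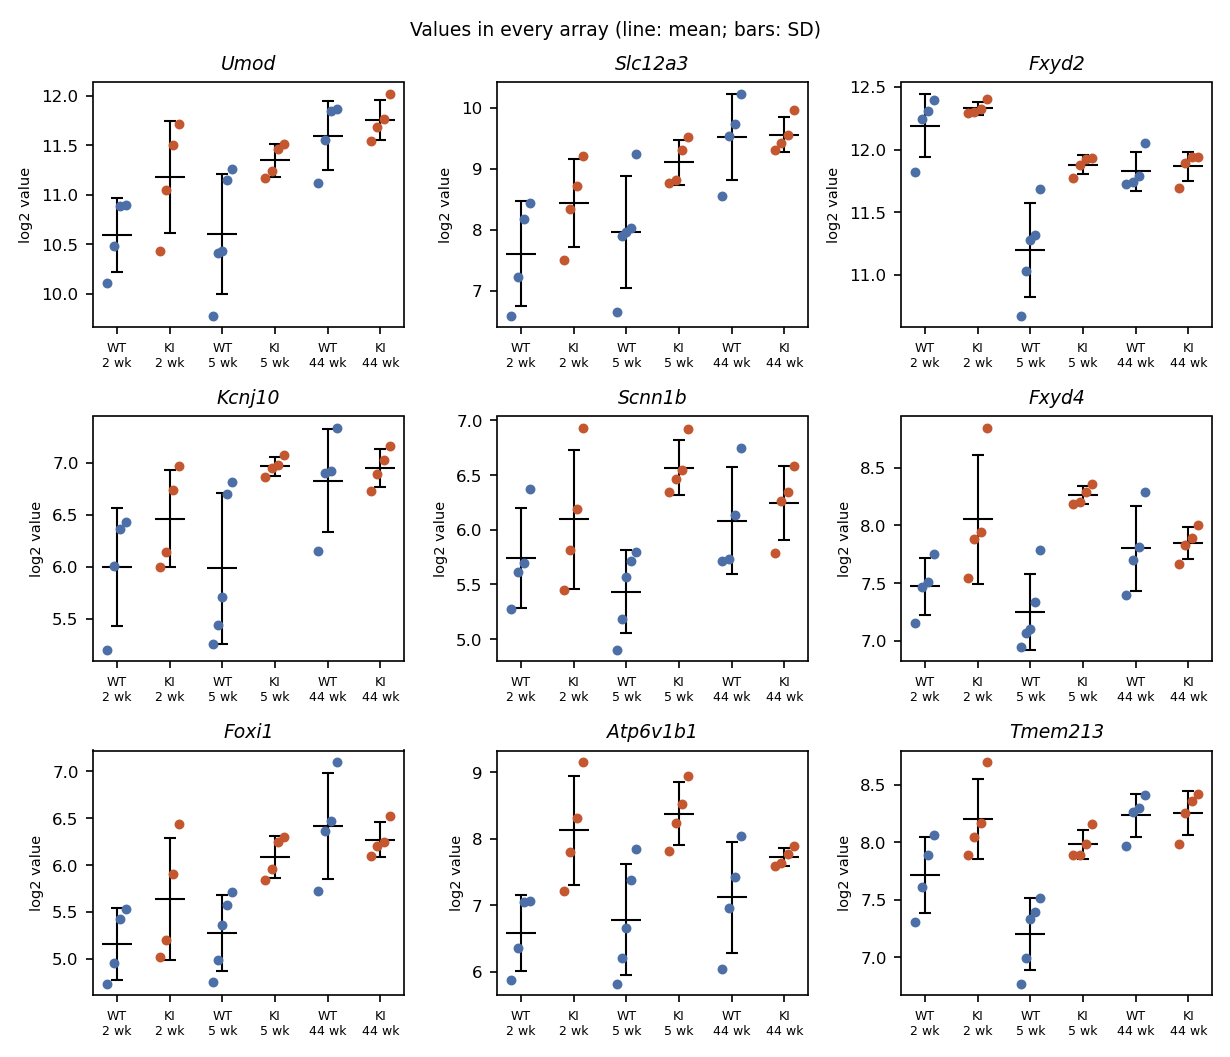
Log2 values of 9 genes in every array by group (blue, WT; orange, KI); the line is the mean and the bars the SD. At 5 weeks the KI arrays of Fxyd2, Kcnj10, Scnn1b, Fxyd4, Foxi1 and Tmem213 lie above all WT arrays, and at 44 weeks the genotypes overlap in all 9 genes.

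Markers of other cell types were read at 5 weeks against the same background of 14.3% of all genes higher and 7.75% lower. Of 16 proximal tubule markers tested 3 rose and 0 fell (median 0.73), of 14 endothelial markers 7 rose (median 0.69), of 11 leukocyte markers 6 rose (median 0.56) and of 7 mesangial and smooth muscle markers 4 rose (median 0.60). Of 3 erythroid markers 2 rose (median 1.16), among them Slc4a1, which is also in the list of further distal nephron genes below. Of 12 podocyte markers 2 rose and 2 fell (median -0.14). Averaged per array, the intercalated cell genes had a mean of 6.62 ± 0.38 in WT and 7.38 ± 0.19 in KI at 5 weeks (SD, n = 5 and 4). Whether the distal segments follow the marker lists array by array was not tested. The 12 principal cell genes, Elf5 among them, had 5.81 ± 0.25 and 6.33 ± 0.11, the distal convoluted and connecting tubule genes 8.38 ± 0.32 and 8.88 ± 0.10, and the thick limb genes 8.72 ± 0.45 and 9.29 ± 0.13.

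**Figure D4:**
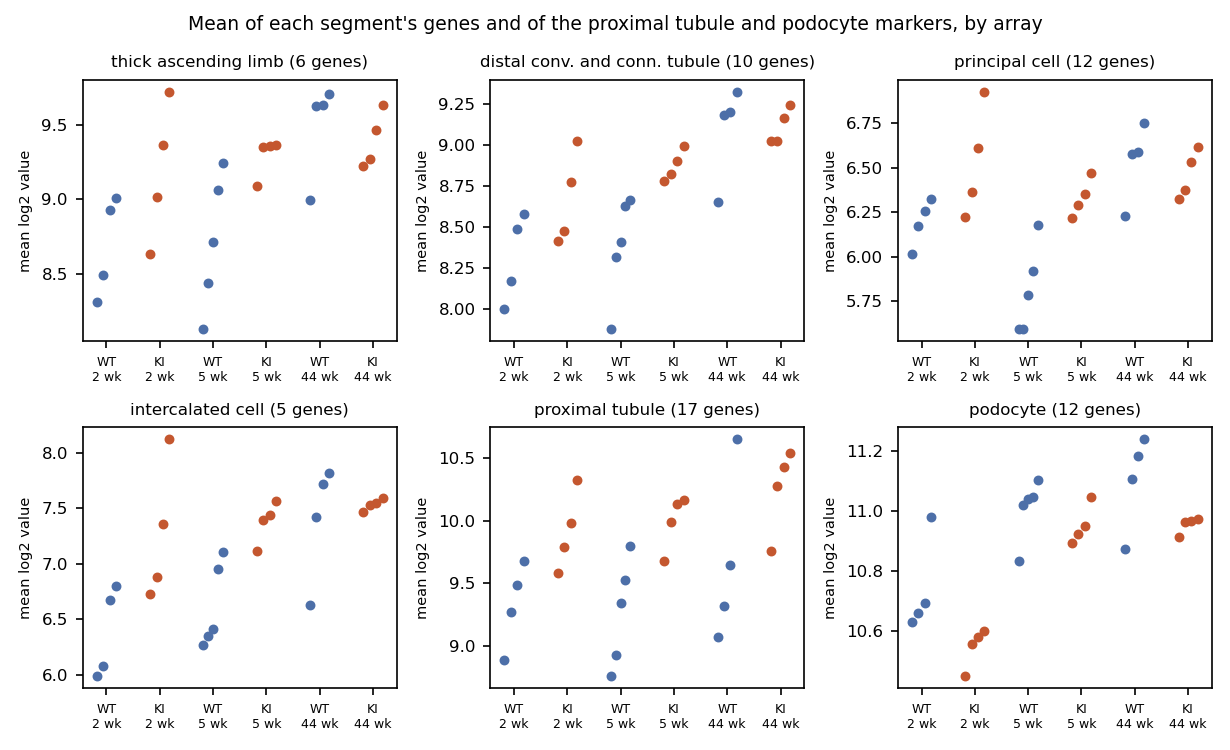
Mean log2 value of each segment's genes, of 17 proximal tubule markers and of 12 podocyte markers in every array by group (blue, WT; orange, KI). In the 4 distal segments and the proximal tubule the WT 5-week arrays reach lower than the KI 5-week arrays, while the podocyte mean lies between 10.83 and 11.10 in all 5-week arrays.

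At 2 weeks no member was called, as no gene of the 11968 was (0%). The values still lay mostly higher in KI: 31 of 32 differences were positive with a median of 0.46, against 44.7% positive and a median of -0.02 over all genes, and 9 members had an unadjusted p under 0.05, against 5.12% of all genes. For 2 members the arrays did not overlap, against 1.16% of all genes higher and 1.74% lower: these were Atp6v1b1, at 1.54 ± 0.45, and Slc26a4, at 1.03 ± 0.34. In the intercalated cell these 2 also had the smallest p. The smallest in the thick ascending limb were those of Egf, at 0.64 ± 0.20, and Slc12a1, at 0.76 ± 0.32. They were those of Calb1, at 0.60 ± 0.26, and Tfap2b, at 0.49 ± 0.24, in the distal convoluted and connecting tubule, and of Fxyd4, at 0.58 ± 0.22, and Scnn1a, at 0.43 ± 0.24, among principal cell genes. The adjusted p of each was 0.893 in limma. Without KI array 22 the median was 0.30, with the proximal tubule covariate it was 0.29, and 0 members were called in every fit that left out a single array. The proximal tubule markers had a median difference of 0.64 at this age with 16 of 16 positive and 0 called. Y-linked genes read high in all WT arrays of 2 weeks and, among the KI arrays, only in array 20. Over the 33 genes the array means were 7.44, 7.09, 7.22 and 7.53 in WT and 7.88, 7.42, 7.55 and 8.25 in KI. KI array 20, at 7.42, lay inside the WT range. Genotype and Y-linked signal thus nearly coincide at this age, and the part of that signal in these differences was not tested.

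At 44 weeks no member was called either, and 0 had an unadjusted p under 0.05 in limma, against 6.37% of all genes; 0.0251% of all genes were called, 0.0167% higher and 0.00836% lower. Of the 32 differences 17 were positive and the median was 0.02, against 0.01 over all genes. The 95% interval lay between -1 and 1, that is within a 2-fold change either way, for 29 of the 32. It reached further for Atp6v1b1 (0.61 ± 0.45, interval -0.32 to 1.53), Aqp4 (-0.72 ± 0.73, interval -2.24 to 0.79) and Wfdc2 (-0.38 ± 0.33, interval -1.06 to 0.30). For 1 member, Ppp1r1a, every KI array lay below every WT array, against 1.31% of all genes, and for 0 it lay above, against 1.43%; Ppp1r1a had a difference of -0.37 ± 0.23 (adjusted p = 0.88). In the thick ascending limb the smallest p after that of Ppp1r1a was that of Kcnj1 at -0.21 ± 0.31, and in the distal convoluted and connecting tubule the smallest were those of Sostdc1 at -0.22 ± 0.26 and Pvalb at 0.19 ± 0.25. Among principal cell genes they were those of Wfdc2 and Aqp4, and among intercalated cell genes those of Atp6v1b1 and Slc26a4 (0.17 ± 0.34). The median of the 32 changed sign between fits: it was -0.16 without WT array 16, 0.10 without WT array 15, and -0.23, with 5 of 32 positive, with the proximal tubule covariate. In each of these fits 0 were called. The proximal tubule markers had a median of 0.35 at this age, with 16 of 16 positive and 0 called.

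Averaged over the 3 ages, 3 members were called and all were higher in KI: Atp6v1b1 by 1.25 ± 0.25 (adjusted p = 0.0177), Fxyd4 by 0.55 ± 0.13 (adjusted p = 0.0272) and Tmem213 by 0.43 ± 0.10 (adjusted p = 0.0291). Of all genes 5.32% were called, 3.99% higher and 1.33% lower in KI, which is 478 of 637 calls higher, against 364 of 590 after quantile normalization. The median over members was 0.35 and 31 of 32 were positive, against 0.01 and 52% over all genes. In segments without a call, the smallest p were those of Umod, at 0.49 ± 0.16, and Egf, at 0.30 ± 0.11, in the thick ascending limb, and of Fxyd2, at 0.29 ± 0.09, and Trpm6, at 0.48 ± 0.15, in the distal convoluted and connecting tubule. The count of 3 became 1 without WT 2-week array 2 or WT 44-week array 16. It became 7 without KI 2-week array 20, 9 without WT 5-week array 6, 9 without WT 44-week array 15 and 11 without WT 5-week array 10. It was 0 without WT 5-week arrays 7, 8 and 9, where 0.0334% of all genes passed, and with the proximal tubule covariate, where 0.0251% passed and the median was 0.12.

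The genotype difference at 5 weeks was set against that at the other ages by the difference of the differences. From 2 to 5 weeks 0 members were called by limma, 1 had an unadjusted p under 0.05 (Fxyd2, 0.55 ± 0.21, adjusted p = 0.181), against 18.7% of all genes, and 0.0251% of all genes were called. The smallest p in the thick ascending limb were those of Ppp1r1a, at 0.56 ± 0.31, and Egf, at -0.29 ± 0.28, and Sostdc1, at 0.60 ± 0.36, came next to Fxyd2 in its segment. Among principal cell genes they were those of Scnn1b, at 0.78 ± 0.41, and Fxyd4, at 0.43 ± 0.31, and among intercalated cell genes those of Slc26a4, at -0.72 ± 0.47, and Atp6v0d2, at -0.57 ± 0.43. From 5 to 44 weeks 0 members were called and 9 had an unadjusted p under 0.05, against 19.5% of all genes, of which 0% were called. At that step 29 of the 32 differences were negative with a median of -0.66, against a median of -0.04 over all genes; the median was -0.23 without WT 5-week arrays 7, 8 and 9. The smallest p were those of Ppp1r1a, at -0.98 ± 0.31, and Bsnd, at -0.63 ± 0.35, in the thick ascending limb, and of Fxyd2, at -0.64 ± 0.21, and Klk1, at -0.72 ± 0.35, in the distal convoluted and connecting tubule. Among principal cell genes they were those of Fxyd4, at -0.96 ± 0.31, and Wfdc2, at -1.34 ± 0.45, and among intercalated cell genes those of Tmem213, at -0.76 ± 0.25, and Foxi1, at -0.95 ± 0.40. The lowest adjusted p of these was 0.118, so the fall of the genotype difference by 44 weeks did not pass for any member in this fit. Without WT 5-week array 10, 5 members passed, and 2 did for the step from 2 to 5 weeks. At each step 0 members passed in the other 16 of 17 fits without 1 array.

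From 2 to 5 weeks in WT mice 28.1% of the members were called, below the 33.9% of all genes. At 5 weeks 4 members were higher and 5 lower, where 12.2% of all genes were higher and 21.7% lower. The median over members was 0.06, against -0.06 over all genes, but its sign depended on single arrays: it was 0.20 without WT 5-week array 7 and -0.06 without array 10, and below 0 also without WT 2-week array 2 or 3 or 5-week array 6. It was 0.41 without arrays 7, 8 and 9 together and -0.22 with array weights. Slc26a4 rose by 1.03 ± 0.33 (adjusted p = 0.0189), Pvalb by 0.76 ± 0.24 (adjusted p = 0.0194), Tfap2b by 0.60 ± 0.23 (adjusted p = 0.0469) and Wnk1 by 0.28 ± 0.08 (adjusted p = 0.00805). Wfdc2 fell by 2.18 ± 0.31 on the log2 scale (adjusted p = 4.61e-05), Aqp4 by 1.94 ± 0.69 (adjusted p = 0.0348), Fxyd2 by 1.00 ± 0.15 (adjusted p = 6.17e-05), Sostdc1 by 0.97 ± 0.25 (adjusted p = 0.00521) and Tmem213 by 0.51 ± 0.17 (adjusted p = 0.0269). In the thick ascending limb none was called, and the smallest p were those of Ppp1r1a, at -0.42 ± 0.21, and Egf, at 0.28 ± 0.19. For Wnk1 every 5-week array lay above every 2-week array, and for Fxyd2 and Sostdc1 every 5-week array lay below, against 7.42% and 9.32% of all genes. The count of 9 became 5 without WT 2-week array 2 and 3 without WT 5-week arrays 7, 8 and 9.

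From 5 to 44 weeks in WT mice, 14 members rose and 0 fell, all 32 differences were positive, and the median was 0.64, against 0.05 over all genes. Of all genes 20.1% were called, 11.3% higher and 8.85% lower, which is 1349 of 2408 calls higher; this was 898 of 2410 after quantile normalization and 803 of 2437 with arrays centred on their medians. In the same arrays the actin 3′ minus 5′ signal was 1.52 ± 0.06 at 5 weeks (n = 5) and 0.99 ± 0.20 at 44 weeks (n = 4), and 18S ribosomal RNA 8.74 ± 0.73 and 11.04 ± 0.27; the part of these in the rise was not tested. Centring the arrays moved the median of all genes from 0.05 to -0.05 and left all 32 members positive. These differences and those between KI and WT at 5 weeks share the WT 5-week arrays. In the thick ascending limb 4 of 6 rose: Umod by 0.99 ± 0.27, Slc12a1 by 0.99 ± 0.31, Kcnj1 by 0.93 ± 0.29 and Ppp1r1a by 0.64 ± 0.21 (adjusted p = 0.0143, 0.0273, 0.0295 and 0.0384). In the distal convoluted and connecting tubule 4 of 10 rose: Slc12a3 by 1.56 ± 0.44, Trpm6 by 0.99 ± 0.26, Tfap2b by 0.98 ± 0.23 and Fxyd2 by 0.63 ± 0.15 (adjusted p = 0.017, 0.0104, 0.00579 and 0.0054). Among principal cell genes 3 of 11 rose, and these were Aqp4 by 2.82 ± 0.69, Wfdc2 by 1.37 ± 0.31 and Aqp3 by 0.96 ± 0.31 (adjusted p = 0.00772, 0.00467 and 0.0358). The WT 5-week means of Aqp4 (4.57) and Aqp3 (4.34) lay below the filter's limit of 4.60, so both passed it through other groups. Of 5 intercalated cell genes 3 rose, Foxi1 by 1.14 ± 0.28, Tmem213 by 1.03 ± 0.17 and Atp6v0d2 by 0.96 ± 0.30 (adjusted p = 0.00709, 0.000477 and 0.0264). The epithelial sodium channel subunits and Aqp2 did not pass. For 6 members, Fxyd2, Aqp3, Aqp4, Wfdc2, Foxi1 and Tmem213, every 44-week array lay above every 5-week array, against 5.77% of all genes, and for 0 it lay below, against 6.38%.

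The count of 14 became 9 without any of WT 5-week arrays 7 and 8 and WT 44-week arrays 15, 17 and 18, taken singly. It was 1 without WT 5-week arrays 7, 8 and 9 together, where 7.11% of all genes passed and the median was 0.35, and 9 with the proximal tubule covariate. Without WT 44-week array 16, which stood low, 13 of the 14 still passed. Leukocyte markers rose at the same step (4 of 11, median 0.58), and of 16 proximal tubule markers 2 rose (median 0.46), where 11.3% of all genes rose. Of 7 mesangial and smooth muscle markers 0 rose and 2 fell (median -0.17), where 8.85% of all genes fell. Of 14 endothelial markers (median 0.45) and 3 erythroid markers (median 0.68) 0 were called. Of 12 podocyte markers 3 rose and 1 fell (median -0.02).

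KI mice showed fewer calls with age than WT mice, among all genes as well as among the members. Of all genes 33.9% were called in WT from 2 to 5 weeks and 20.1% from 5 to 44 weeks, against 13.7% and 16.8% in KI. Of the members 6.25% and 9.38% were called in KI, below those KI shares. From 2 to 5 weeks Wfdc2 fell by 1.77 ± 0.33 on the log2 scale (adjusted p = 0.00129) and Aqp4 by 2.53 ± 0.73 (adjusted p = 0.0243), and 0 members rose, while 13.7% of all genes were called, 5.4% higher and 8.29% lower. The median over members was 0.19, against 0.02 over all genes; it was 0.38 without KI 2-week array 22, 0.03 without array 20, 0.12 without array 21 and 0.12 without KI 5-week array 25. For 3 members, Fxyd2, Aqp4 and Wfdc2, every 5-week array lay below every 2-week array, against 13.7% of all genes, and for 0 it lay above, against 11.5%. In the segments without a call the smallest p were those of Kcnj1, at 0.42 ± 0.31, and Ppp1r1a, at 0.14 ± 0.23, of Fxyd2, at -0.45 ± 0.15, and Wnk1, at 0.20 ± 0.08, and of Foxi1, at 0.44 ± 0.29, and Tmem213, at -0.22 ± 0.18. From 5 to 44 weeks Aqp4 rose by 2.42 ± 0.73 (adjusted p = 0.0281), Tfap2b by 1.03 ± 0.24 (adjusted p = 0.00655) and Wnk1 by 0.25 ± 0.08 (adjusted p = 0.0409), and 0 fell. The KI 5-week mean of Aqp4, 4.25, lay below the filter's limit of 4.60, so Aqp4 passed the filter through other groups. Its fall was called in 4 of 8 fits without 1 array and its rise in 2 of 8. Of all genes 16.8% were called, 8.11% higher and 8.64% lower, which is 971 of 2005 calls higher, against 769 of 2141 after quantile normalization, and the median over members was 0.13, against -0.01 over all genes, with 0.06 to 0.18 when 1 array was left out. Umod, at 0.41 ± 0.29, and Ppp1r1a, at -0.34 ± 0.23, had the smallest p in the thick ascending limb, and Atp6v0d2, at 0.67 ± 0.31, and Tmem213, at 0.27 ± 0.18, in the intercalated cell; none passed. Arrays of 5 and 44 weeks did not overlap for 5 members that were higher at 44 weeks (Umod, Wnk1, Tfap2b, Aqp4 and Atp6v0d2, against 12.5% of all genes) and for 1 that was lower (Fxyd4, against 13.3%). Whether WT and KI differ in these changes is the test of the difference of differences above, which called 0 members. The 2 calls from 2 to 5 weeks became 1 without KI array 20, 21, 23 or 24. The 3 calls from 5 to 44 weeks became 1 without KI array 23, 24, 26, 32, 33 or 34.

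Wfdc2 and Aqp4 fell from 2 to 5 weeks in both genotypes. At 44 weeks Aqp4 had risen again in both, and Wfdc2 had risen in WT, with a difference of 0.03 ± 0.33 in KI that did not pass. Wfdc2 at 2 weeks read 9.01, 10.39, 10.81 and 10.62 in WT and 10.63, 10.56, 11.21 and 10.63 in KI, at 5 weeks 7.68, 7.89, 7.47, 7.94 and 9.13 in WT and 9.18, 8.87, 9.09 and 8.80 in KI, and at 44 weeks 9.24, 9.26, 9.19 and 9.90 in WT and 8.67, 9.01, 9.05 and 9.34 in KI. Every KI 2-week array of Wfdc2 lay above every other KI array. Aqp4 at 2 weeks read 3.07, 8.11, 7.70 and 7.15 in WT and 6.68, 7.21, 6.93 and 6.28 in KI, at 5 weeks 4.09, 5.40, 3.55, 5.00 and 4.79 in WT and 4.05, 3.44, 5.20 and 4.31 in KI, and at 44 weeks 7.05, 6.86, 8.77 and 6.87 in WT and 6.33, 6.71, 6.50 and 7.13 in KI. WT 2-week array 1, at 3.07, was over 4 log2 units below the other 3 arrays of its group, and without it the WT difference from 2 to 5 weeks was -3.08; without WT 2-week array 2 it was -1.40, and in 5 of the 9 fits without 1 array it did not pass. Aqp4 had 2 further, dimmer probe sets (means 3.57 and 3.74), for which WT changed by -0.79 and -0.00 from 2 to 5 weeks and by 0.60 and -0.25 from 5 to 44 weeks. The course of Aqp4 therefore rests on 1 of 3 probe sets, whose 5-week means, 4.57 in WT and 4.25 in KI, lay below the filter's limit of 4.60. Sostdc1 at 2 weeks read 8.04, 8.47, 7.23 and 7.49 in WT and 8.00, 7.47, 7.15 and 8.19 in KI, at 5 weeks 6.97, 6.68, 6.73, 6.78 and 7.03 in WT and 7.64, 7.48, 7.22 and 6.99 in KI, and at 44 weeks 7.82, 6.85, 7.34 and 7.52 in WT and 6.70, 7.64, 7.12 and 7.20 in KI. Sostdc1 had a second probe set (mean 6.55), for which KI minus WT at 5 weeks was 1.03 and WT changed by -1.13 from 2 to 5 weeks.

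Tfap2b and Slc26a4 rose from 2 to 5 weeks in WT, while in KI neither was called at that step. Tfap2b at 2 weeks read 5.41, 5.42, 5.56 and 6.20 in WT and 6.39, 5.93, 5.75 and 6.47 in KI, at 5 weeks 6.70, 5.66, 6.12, 6.35 and 6.40 in WT and 6.32, 5.98, 6.63 and 6.09 in KI, and at 44 weeks 7.07, 6.66, 7.80 and 7.35 in WT and 7.33, 7.51, 7.04 and 7.27 in KI. The 44-week arrays of Tfap2b lay above nearly all earlier ones in both genotypes, the exception being WT 5-week array 6, which read above WT 44-week array 16. Slc26a4 at 2 weeks read 7.07, 6.33, 6.29 and 7.06 in WT and 7.78, 7.10, 7.25 and 8.73 in KI, at 5 weeks 8.32, 7.03, 7.30, 7.78 and 8.14 in WT and 8.24, 7.83, 7.95 and 8.07 in KI, and at 44 weeks 8.84, 7.20, 8.34 and 8.17 in WT and 8.44, 8.17, 8.58 and 8.07 in KI. In the WT mice the rise of pendrin came between 2 and 5 weeks. At 2 weeks KI arrays read 7.10 or above and WT arrays 7.07 or below, a difference that was not called.

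**Figure D5:**
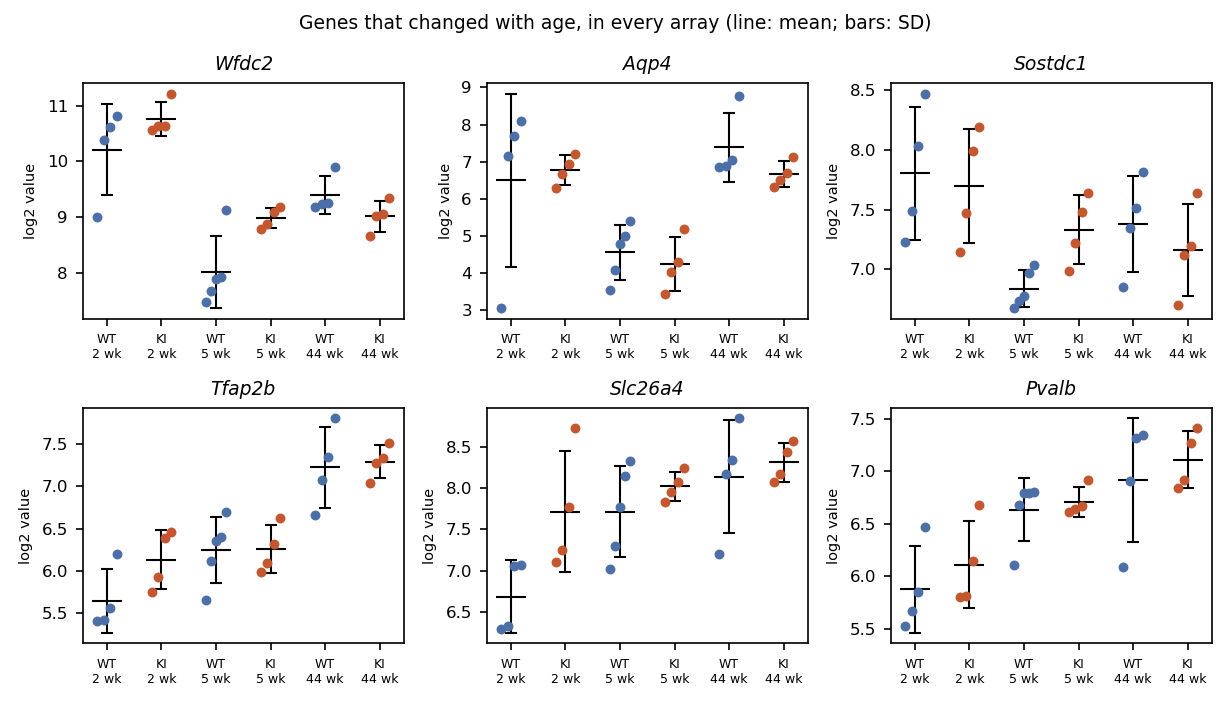
Log2 values of 6 genes that were called between ages, in every array by group (blue, WT; orange, KI); the line is the mean and the bars the SD. Aqp4 is lowest at 5 weeks in both genotypes, Wfdc2 is highest at 2 weeks in both, and Tfap2b is highest at 44 weeks in both.

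Probe sets of the same gene did not always give the same difference. There were 54 probe sets for the 33 genes, and 13 genes had more than 1. Both probe sets of Umod gave similar KI minus WT differences at 5 weeks, 0.74 and 0.79, and those of Fxyd2 gave 0.68, 0.80, 0.83 and 0.31. For Slc12a3 the second, dimmer probe set (mean 5.10) gave 0.01 against 1.15, for Trpm6 (mean 5.28) it gave 0.13 against 0.76, and for Kcnj1 (mean 4.81) -0.06 against 0.48. The 4 probe sets of Calb1 gave 0.21, -0.16, 0.54 and 0.74. The 3 of Klk1 gave 0.67, 0.68 and 0.26, and the 3 of Wnk1 (means 11.41, 10.42 and 5.17) gave -0.06, -0.31 and 0.18. From 5 to 44 weeks in WT, the 3 of Aqp3 (means 4.81, 4.72 and 3.81) gave 0.96, 0.42 and 0.11. The mean of the Aqp3 probe sets gave 0.49 at that step.

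A list of 48 further distal nephron genes, none of them among the 36, was read beside the members, and 40 of them were tested. Slc4a1 is in this list and in the erythroid list, and its 5-week rise (0.90 ± 0.33, limma adjusted p = 0.0497) counts in both. At 5 weeks 11 rose in KI and 0 fell (median 0.42), where 14.3% of all genes rose and 7.75% fell. The smallest p belonged to the kinase Wnk4 (1.16 ± 0.22), the ammonia transporter Rhbg (1.17 ± 0.25), the carbonic anhydrase Car15 (1.23 ± 0.28) and the insulin receptor-related receptor Insrr (0.78 ± 0.19). At 2 weeks 0 were called and 38 of 40 were positive (median 0.54), and at 44 weeks 0 were called and 28 were positive (median 0.10). Averaged over ages 10 rose, where 3.99% of all genes did, among them Wnk4 (0.73 ± 0.13) and the ubiquitin ligase Nedd4l (0.66 ± 0.14), which targets the sodium channel.

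With age in WT mice, 2 of the 40 rose and 14 fell from 2 to 5 weeks, where 12.2% of all genes rose and 21.7% fell, the smallest p being those of Grhl2 (-1.67 ± 0.23), Irx1 (-1.91 ± 0.35), Nedd4l (-1.21 ± 0.23) and the keratin Krt8 (-2.52 ± 0.49). From 5 to 44 weeks 19 rose and 0 fell, where 11.3% of all genes rose and 8.85% fell, led by Esrrb (1.55 ± 0.28), Wnk4 (1.13 ± 0.22), Mal (1.12 ± 0.24) and the potassium channel Kcnj16 (1.14 ± 0.25). In KI mice 0 rose and 11 fell from 2 to 5 weeks, where 5.4% of all genes rose and 8.29% fell, with the transcription factors Irx2 (-2.63 ± 0.38), Ehf (-2.02 ± 0.31), Irx1 (-2.28 ± 0.36) and Pou3f3 (-1.77 ± 0.34) first. From 5 to 44 weeks in KI 5 rose and 1 fell, near the 16.8% of all genes that were called, the mineralocorticoid receptor Nr3c2 (0.74 ± 0.19) and Mal (0.95 ± 0.26) among the rises and the keratin Krt7 (-0.48 ± 0.14) the fall. Each named difference of this list passed in limma. The difference of differences called 0 of the 40 at either step, where the smallest unadjusted p were 0.0157 (Krt7, 0.50 ± 0.19) from 2 to 5 weeks and 0.0033 (Insrr, -0.89 ± 0.27) from 5 to 44 weeks.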

How the data were processed

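The deposited values are on a log2 scale, 1 per probe set and array, for polysomal RNA of 25 samples hybridized to Affymetrix mouse arrays with perfect-match probes. The scale was inferred: they run from 1.86 to 13.62, and read as natural logs the highest would exceed the scanner's 16-bit limit of 65535. Per the labels' protocols, RNA was amplified once (NuGEN WT-Ovation) and biotin-labelled; summarization, normalization and genome build are not given in the sources used here. Array medians differed by at most 0.17. On arrays the number of arrays limits the precision.

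Of 45141 probe sets, 28898 carried 1 gene symbol in the platform annotation, 551 carried several, 15692 were not in it and 104 were controls; those with several were not used. The brightest probe set on average stood for each of 17097 genes, the 30% of genes with the lowest means (mean below 4.60) were left out, and group means of all 25 arrays were fitted with limma 3.58.1 (R 4.3.3). The residual degrees of freedom were 19, p-values were adjusted by Benjamini-Hochberg, and no minimum fold change was set. Alternatives changed the normalization, filter, probe set rule, variance prior, array weights, arrays used and covariates.

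The members and gene lists were chosen with earlier results of these data known. Genes were named by a rule: in each comparison the members called, or, in a segment without a call, the 2 with the smallest p. Every array is given for called members whose 5-week groups did not overlap and for 10 genes chosen for their place in the nephron. Values of Aqp4, Wfdc2, Sostdc1, Tfap2b and Slc26a4 in every array and the remarks on further members at 5 weeks were added after their values were seen. Of other genes, cell type markers and up to 4 further distal nephron genes by p are named.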

Additional observations from a re-analysis of the deposited data

Results flagged for a closer look

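In 8 of 198 sets of a gene and a group, the highest or lowest array lay far from the others by Dixon's criterion, which flags about 1 set in 20 by chance. WT 44-week array 16 was low for Kcnj1, at 8.71 with the next array at 9.44, and for Trpm6, at 5.88 with the next at 6.76. WT 5-week array 10 was low for Pvalb, at 6.10 against 6.67, and high for Wfdc2, at 9.13 against 7.94. Wfdc2 was also high in KI 2-week array 21, at 11.21 against 10.63, and in WT 44-week array 18, at 9.90 against 9.26. KI 2-week array 22 was high for Aqp2, at 6.79 against 6.40. WT 44-week array 17 was high for Aqp4, at 8.77 against 7.05.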

How the results depend on the processing

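No paired analysis was possible because the array numbers in the titles are not shared between groups. Under all alternatives run, 0 members were called between KI and WT at 2 and at 44 weeks, and no called member reversed its direction. At 5 weeks the 13 calls became 7 after quantile normalization, 8 with centred arrays, 8 without the filter on dim genes, 3 with only the arrays compared, 1 with the proximal tubule covariate and 0 without WT arrays 7, 8 and 9, and 19 with array weights. Leaving out 1 array at a time gave 5 to 18. Averaged over ages the 3 calls became 18 with array weights, 0 with the covariate and 0 without WT arrays 7, 8 and 9, and leaving out 1 array gave 1 to 11. From 2 to 5 weeks in WT the 9 calls became 5 with only the arrays compared and 3 without those 3 arrays, and 5 to 9 with 1 array left out. From 5 to 44 weeks in WT the 14 calls became 8 with the 50% filter, 9 with the covariate, 3 with only the arrays compared, 1 without those 3 arrays and 20 with array weights, and 9 to 18 with 1 array left out. In KI from 2 to 5 weeks the 2 calls became 4 with the mean of all probe sets and 6 with array weights, and 1 to 2 with 1 array left out. In KI from 5 to 44 weeks the 3 calls became 1 with the 50% filter and 1 with the mean of all probe sets, and 1 to 3 with 1 array left out. The differences of differences, with 0 calls, gave 4 (from 2 to 5 weeks) and 8 (from 5 to 44 weeks) with array weights, and 0 to 2 and 0 to 5 with 1 array left out. The 50% filter took members out of the test: 8 of the 14 WT calls and 1 of the 3 KI calls from 5 to 44 weeks were still tested, and 0 of these were lost. Fits of fewer arrays have fewer degrees of freedom. Beyond this the cause was not tested. Signal limits Elf5 and the dimmer probe sets of Aqp4, whose means lie below the filter. It also limits Aqp3 in WT at 2 and 5 weeks and Aqp4 in both genotypes at 5 weeks, where group means lay below 4.60.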
